A study of Mus musculus with 12 samples.

Results

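The genes described are the enzymes of cholesterol and fatty acid synthesis, with their main transcriptional regulators and a sterol carrier, in mouse germ cells made in culture or taken from embryos. Of 30 genes listed by name, 29 had a probe set annotated to that gene alone. The other, Acat2, was not analysed here. These 29 genes had 67 of the 45101 probe sets on the array, and each was read from its probe set with the highest mean over the 12 arrays. All 29 passed the filter on low values, among 13436 genes tested, and 28 of them were above the median of all values, 4.81 on the log2 scale, on each of the 12 arrays. Of the 29, 15 had their lowest group mean in germ cells of the earlier embryonic stage, E9.5, and 16 had their highest in cultured germ cells that had been aggregated with gonadal cells. Mvk and Mvd, early enzymes of the sterol pathway, were instead lowest in germ cells at E12.5.

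Primordial germ cells (PGCs) are the embryonic precursors of oocytes and sperm, and PGC-like cells (PGCLCs) are their counterparts induced from embryonic stem cells. The 6 groups had 2 arrays each. Female PGCLCs were taken at day 3 (d3), at day 6 (d6 female), and at day 3 followed by 6 days in an aggregate with somatic cells of female E12.5 gonads (d3ag6). Male PGCLCs were taken at day 6 (d6 male). All PGCLCs were of C57BL/6 background and carried BVSC, the pair of transgenic reporters Blimp1-mVenus and stella-ECFP. PGCs came from embryos of a mixed C57BL/6 and BDF1 background with a stella-EGFP reporter, as female cells at E12.5 and as cells of unknown sex at E9.5. Strain and reporter therefore differ between every PGCLC group and both PGC groups. All cells were sorted on reporter fluorescence, and the cDNA, from 5 ng of RNA or about 500 cells, went through PCR beginning with 12 cycles. The titles call the arrays biological replicates, but the number of ES cell lines or embryos behind each was not given in the sources used here.

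Cells build cholesterol from acetyl-CoA by way of mevalonate, isoprenoid diphosphates, squalene and lanosterol, and build fatty acids from the same acetyl-CoA through malonyl-CoA. Both pathways are switched on by the sterol regulatory element-binding proteins (SREBPs), which are held in the endoplasmic reticulum while sterols are ample and are cut free to enter the nucleus when sterols run low. SREBPs bind the sterol regulatory element, usually with the factor NF-Y bound close by. In the ovary, sterol intermediates between lanosterol and cholesterol are known as meiosis-activating sterols of the oocyte.

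The upstream DNA of these genes is shown first for the gene whose promoter window held the classical sterol regulatory element. RefSeq promoter windows (assembly GRCm38.p6) were matched for 22 of the 29 genes, and the 250 bases before each start were searched on both strands. The element, spelled TCACNCCAC, lay upstream of 1 of 22 genes (4.55%), Hmgcs1, against 1.28% of 10851 tested genes with a window. The NF-Y box, spelled CCAAT, lay upstream of 18 of 22 (81.8%), against 39.9% of the same 10851 genes. The 4 genes without the box were Acaca, Acly, Elovl6 and Fads2. Below is the stretch before the start of Hmgcs1, the enzyme that makes HMG-CoA, from chr13:119690104-119690320 on the plus strand. Capitals mark the element, 137 to 129 bases before the start, and 3 NF-Y boxes read on the opposite strand, at 237 to 233, 176 to 172 and 45 to 41 bases before it. No motif overlaps another.
Hmgcs1: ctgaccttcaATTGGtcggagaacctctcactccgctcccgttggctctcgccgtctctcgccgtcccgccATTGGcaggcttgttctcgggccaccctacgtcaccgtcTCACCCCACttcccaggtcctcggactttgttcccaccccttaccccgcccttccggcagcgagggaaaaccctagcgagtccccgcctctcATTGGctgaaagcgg
These matches describe letters only. Hmgcs1 itself was not among the genes that differed over the groups (adjusted p = 0.457).

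A test of any difference among the 6 groups (limma's moderated F-test, adjusted over all 13436 genes) called 12 of the 29 genes at an adjusted p under 0.05, or 41.4%, against 37% of all genes. The share called was thus close to that of all genes. In order of adjusted p the 12 were Hsd17b7, Scd1, Srebf1, Stard4, Mvk, Dhcr7, Tm7sf2, Elovl6, Mvd, Acly, Fdft1 and Fdps, with values from 0.00128 to 0.0262. They comprised 3 of 6 mevalonate enzymes, 4 of 11 squalene and sterol enzymes, 2 of 4 regulators and carriers, and 3 of 8 fatty acid enzymes. The calls of Hsd17b7, Scd1, Srebf1 and Stard4 held with each of the 12 arrays left out in turn. Leaving out d3ag6 replicate 1 ended the call of Dhcr7 (adjusted p = 0.0536), and leaving out d6 male replicate 2 ended that of Tm7sf2 (adjusted p = 0.0628). Leaving out either E12.5 array ended the calls of Mvk, Elovl6, Mvd, Fdft1 and Fdps, with adjusted p up to 0.0966, 0.144, 0.0732, 0.0757 and 0.0613 over all arrays. Mvd also needed d6 female replicate 2, Fdft1 also needed d6 female replicate 1, both d3ag6 arrays and E9.5 replicate 2, and Fdps also needed d3ag6 replicate 2 and d6 male replicate 2. Acly needed d6 female replicate 1 and both d3ag6 arrays (adjusted p up to 0.0614). With the mean of all probe sets Hsd17b7 (0.309), Mvk (0.0536), Elovl6 (0.17), Acly (0.185), Fdft1 (0.307) and Fdps (0.0655) lost their calls, where the values are adjusted p, and Fdps lost its own without the filter too (0.0548).

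E9.5 had the lowest group mean for 15 of the 29 genes (51.7%), whereas it was the lowest for 22.6% of all genes tested. The d3ag6 group had the highest mean for 16 of 29 (55.2%), against 16.6% of all genes. The d6 male group was lowest for 4 of 29 (13.8%), against 20.2% of all genes. The E9.5 and d6 male arrays share array codes that the other groups lack, and the part of these codes was not tested. These orders are descriptions of 2 arrays per group, and neighbouring groups often overlapped.

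**Figure D1:**
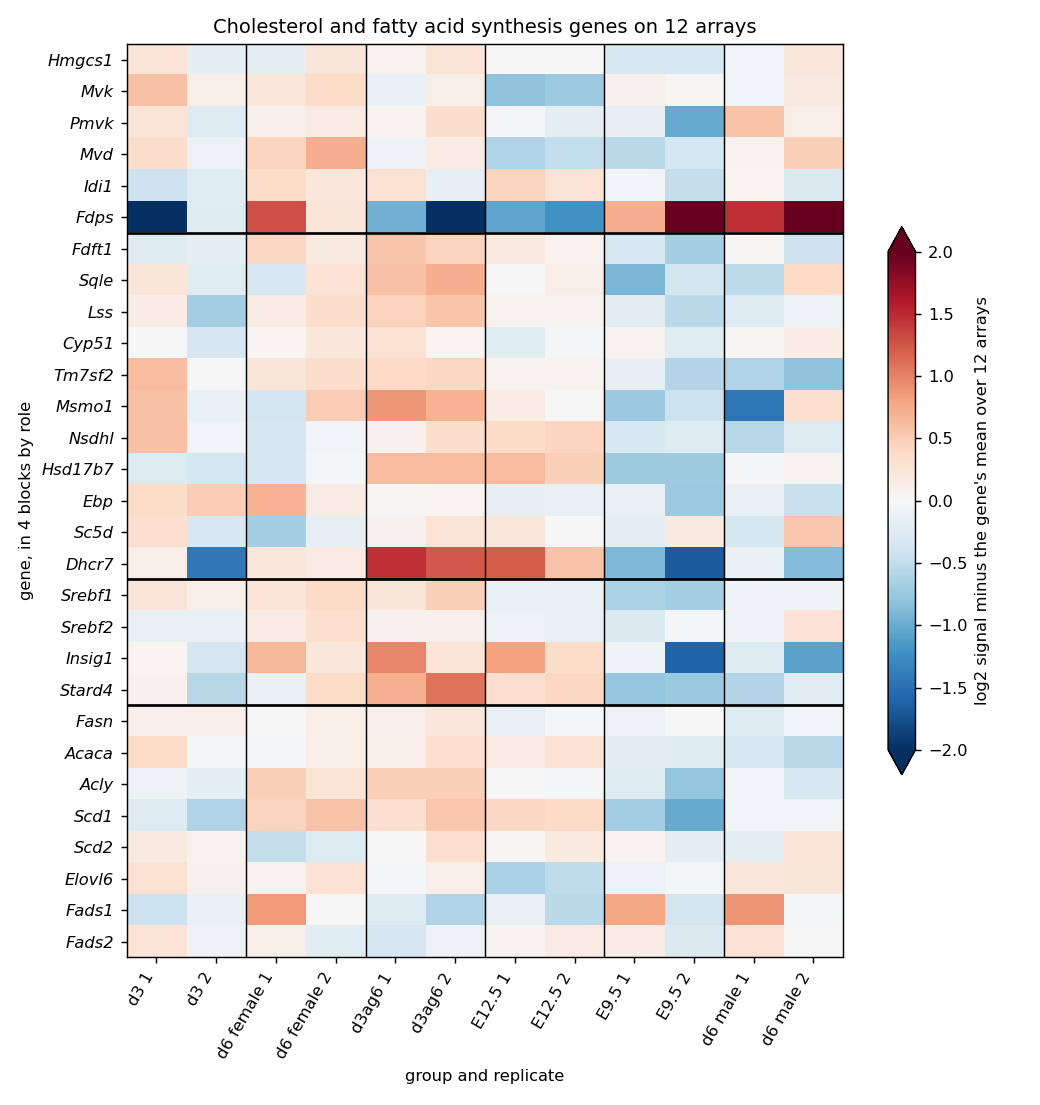
Each cell gives the log2 signal of 1 gene (rows, in 4 blocks by role) on 1 array (columns) minus that gene's mean over the 12 arrays, with red above and blue below the mean and the colour scale ending at 2 in both directions. The E9.5 columns are mostly blue and the d3ag6 columns mostly red below the top block, while Mvk and Mvd are bluest in E12.5.

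**Figure D2:**
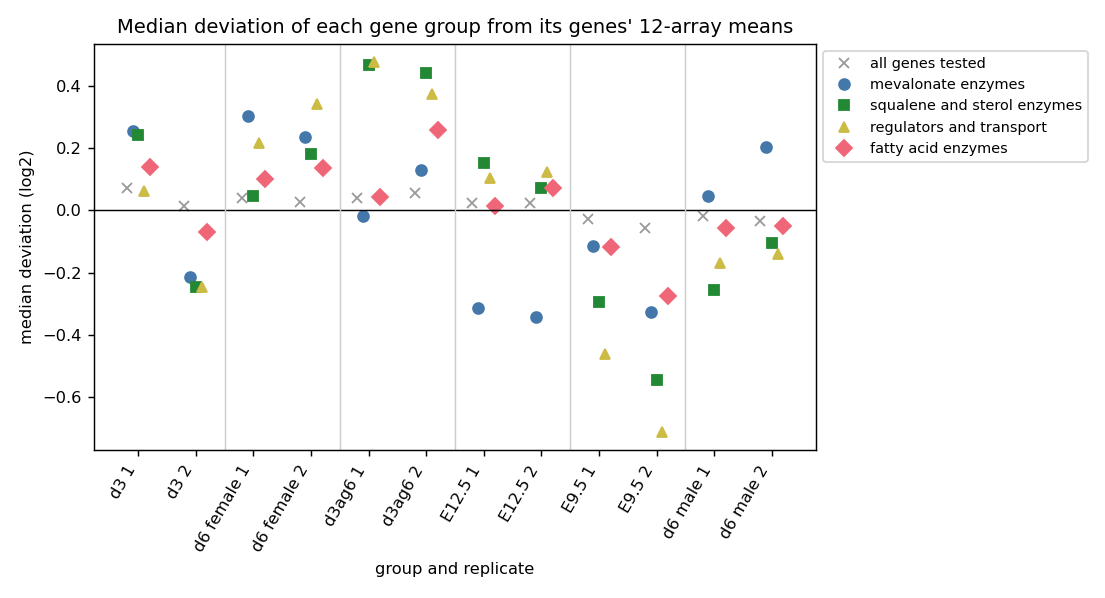
Points give, for each array (x axis), the median over the genes of a role of log2 signal minus the gene's 12-array mean (y axis), with crosses for all genes tested. On the d3ag6 arrays the squalene and sterol enzymes stood at 0.47 and 0.44, and on the E9.5 arrays at -0.30 and -0.55, while the mevalonate enzymes were lowest on the E9.5 and E12.5 arrays and on d3 replicate 2.

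The roles had different orders across arrays, a difference that was not tested. The median deviation of the 11 squalene and sterol enzymes was 0.47 and 0.44 in d3ag6, against 0.041 and 0.056 for all genes. In E9.5 it was -0.30 and -0.55, against -0.028 and -0.057. The 4 regulators and carriers followed the same order, from 0.48 and 0.37 in d3ag6 to -0.46 and -0.71 in E9.5. The 6 mevalonate enzymes instead stood at -0.31 and -0.34 in E12.5 and at -0.12 and -0.33 in E9.5. Over the 29 genes the replicates of d3 lay furthest apart, with a median absolute difference of 0.37, and those of E12.5 closest, with 0.12. Over all genes d3 stood at 0.25 and E12.5 at 0.15, and the replicates of E9.5 and d6 male lay furthest apart, both at 0.32.

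Germ cell markers were present throughout: all 8 measured of the 9 listed were above 4.81 on both arrays of each group but E9.5, where 7 were. Their summed level, the log2 of the summed linear signal, lay between 14.42 and 15.20. Markers of other cell types stood higher in some groups. The summed level of 7 macrophage genes was 10.68 to 10.97 in d3ag6 and 8.32 to 8.86 elsewhere, and none of the 7 was below 4.81 on both d3ag6 arrays, whereas Lyz2, Ptprc and Adgre1 were below it on both arrays of each other group. The 6 mesenchyme genes summed to 9.95 to 11.06 in E9.5 and to 7.44 to 9.86 elsewhere, the highest of which was a d3ag6 array. Erythroid genes, 3 measured of 4, summed to 11.45 to 12.59 in E9.5 and to 3.71 to 7.17 elsewhere. The 5 endothelial genes reached 10.75 to 11.02 in d6 male, 8.74 to 10.22 in d6 female, 9.05 to 10.13 in E9.5 and 6.83 to 8.0 in the other groups. In E9.5 the sum rests mostly on Pecam1, at 8.43 and 9.87, while Cdh5, Kdr, Tek and Tie1 read from 4.26 to 5.98. The 9 gonadal somatic genes summed to 10.87 to 11.36, a sum that rests mostly on Cbx2, at 10.46 or more on each array. The sum does not show other members: Amhr2 read 6.56 and 5.48 in d3, 4.54 and 4.44 in d6 female, 7.53 and 7.68 in d3ag6, 6.06 and 5.58 in E12.5, 4.49 and 4.55 in E9.5, and 4.88 and 4.83 in d6 male, and Wt1 read 5.79 and 5.31 in d3ag6 and 3.84 and 3.80 in d6 female. Nr5a1 and Emx2 were below 4.81 on both arrays of every group. The 4 steroidogenic genes stayed between 6.59 and 7.66 with Cyp17a1 below 4.81 throughout. The 5 lipid-handling genes of visceral endoderm and liver stood at 7.33 to 8.45 outside d3ag6 and at 7.71 and 11.86 on its replicates 1 and 2. On these arrays Alb read 3.21 and 11.12 and Ttr 6.86 and 10.10, Apoa1 was above 4.81 on replicate 2 alone, at 8.33, and Afp was below it on both. None of these markers was listed at 0. What part these markers have in the results below was not tested, and in such bulk samples fewer cells of a type and less RNA per cell cannot be told apart.

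**Figure D3:**
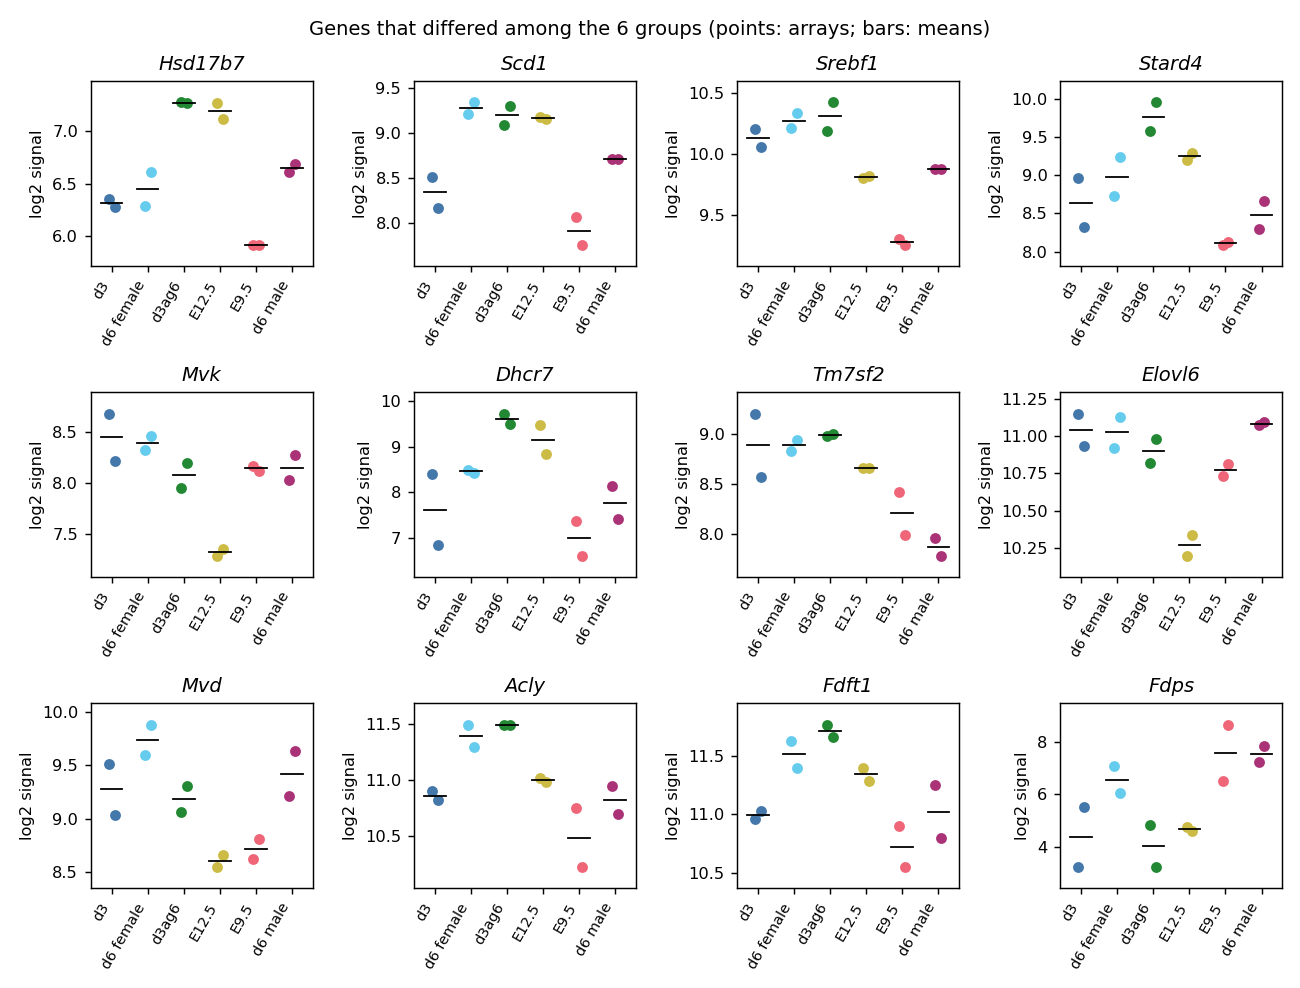
Points give the log2 signal on each array and bars the mean of the 2 arrays, for the 12 genes that differed over the 6 groups, in order of adjusted p and each with its own y axis. Hsd17b7, Scd1, Srebf1 and Stard4 are lowest in E9.5, Mvk and Elovl6 are lowest in E12.5, and Tm7sf2 is lowest in d6 male.

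The mevalonate enzymes come first in the pathway. Hmgcs1 condenses acetyl units to HMG-CoA, and read 11.92 and 11.47 in d3, 11.47 and 11.90 in d6 female, 11.74 and 11.93 in d3ag6, 11.66 and 11.66 in E12.5, 11.35 and 11.35 in E9.5, and 11.61 and 11.89 in d6 male. Both E9.5 arrays were below the other 10. Mvk, the kinase that phosphorylates mevalonate, read 8.68 and 8.22 in d3, 8.32 and 8.46 in d6 female, 7.95 and 8.20 in d3ag6, 7.29 and 7.36 in E12.5, 8.17 and 8.12 in E9.5, and 8.03 and 8.27 in d6 male. Both E12.5 arrays were below the other 10. Mvd, which decarboxylates the phosphorylated product to isopentenyl diphosphate, read 9.51 and 9.04 in d3, 9.60 and 9.88 in d6 female, 9.06 and 9.31 in d3ag6, 8.55 and 8.66 in E12.5, 8.62 and 8.81 in E9.5, and 9.21 and 9.63 in d6 male. Both E12.5 arrays and both E9.5 arrays were below all arrays of the remaining groups, and d6 female had the highest mean. Pmvk, the kinase between Mvk and Mvd, did not differ over the groups by the test (adjusted p = 0.182). Its 2 E9.5 arrays differed by 0.84.

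Idi1, the isomerase that balances the isoprenoid building blocks, read 10 and 10.17 in d3, 10.78 and 10.63 in d6 female, 10.71 and 10.24 in d3ag6, 10.85 and 10.68 in E12.5, 10.35 and 9.94 in E9.5, and 10.45 and 10.12 in d6 male. Its groups overlapped (adjusted p = 0.108), and neither d6 female nor E12.5 overlapped d3 or E9.5. Fdps, which makes farnesyl diphosphate, read 3.22 and 5.53 in d3, 7.09 and 6.03 in d6 female, 4.83 and 3.22 in d3ag6, 4.74 and 4.59 in E12.5, 6.52 and 8.66 in E9.5, and 7.25 and 7.85 in d6 male. It was the only gene of the set below 4.81 on any array, on 4 of them, and its group means had the widest range, 3.56. Its levels were high on the 4 arrays with the codes EA0831 and EA0842 and on d6 female, and its second probe set had group means from 1.01 to 2.29 throughout, so Fdps is reported with that limit.

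The squalene and sterol enzymes carry the committed steps. Fdft1, squalene synthase, read 10.96 and 11.03 in d3, 11.63 and 11.40 in d6 female, 11.77 and 11.66 in d3ag6, 11.40 and 11.29 in E12.5, 10.90 and 10.55 in E9.5, and 11.25 and 10.80 in d6 male. Both d3ag6 arrays were above all others. Sqle, the epoxidase after it, read 11.52 and 11.03 in d3, 10.95 and 11.57 in d6 female, 11.86 and 12.00 in d3ag6, 11.26 and 11.41 in E12.5, 10.36 and 10.91 in E9.5, and 10.75 and 11.68 in d6 male. Its d3ag6 arrays were also above all others, but the d6 male arrays differed by 0.93 and the test over groups did not call it (adjusted p = 0.146). Tm7sf2, a sterol reductase, read 9.20 and 8.57 in d3, 8.83 and 8.94 in d6 female, 8.98 and 9.0 in d3ag6, 8.66 and 8.66 in E12.5, 8.42 and 7.99 in E9.5, and 7.96 and 7.78 in d6 male. Both d6 male arrays were below the other 10, and the d3 arrays spanned the levels of d6 female and d3ag6.

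Hsd17b7, a reductase that takes part in removing methyl groups from the sterol ring, read 6.35 and 6.28 in d3, 6.29 and 6.61 in d6 female, 7.27 and 7.26 in d3ag6, 7.26 and 7.11 in E12.5, 5.92 and 5.92 in E9.5, and 6.61 and 6.69 in d6 male. The d3ag6 and E12.5 arrays were above all others and the E9.5 arrays below all others. Its 3 other probe sets differed less between groups: their differences were 0.17, 0.18 and -0.23 in d3ag6 minus d3, and -0.14, 0.50 and 0.48 in E12.5 minus E9.5, where the probe set used gave 0.95 and 1.27. Hsd17b7 is therefore uncertain as a gene. Dhcr7, the reductase that completes cholesterol, read 8.40 and 6.84 in d3, 8.49 and 8.43 in d6 female, 9.73 and 9.51 in d3ag6, 9.48 and 8.84 in E12.5, 7.37 and 6.61 in E9.5, and 8.14 and 7.41 in d6 male. It had the widest range of group means in the set after Fdps, 2.63, with d3ag6 highest and E9.5 lowest. The d3 arrays differed by 1.56, and the lower of them lay between the E9.5 arrays.

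The other 7 enzymes of this block were not called over the groups. Lss, which cyclises the squalene epoxide to lanosterol, had its highest mean in d3ag6 (9.68 ± 0.06, SD) and its lowest in E9.5 (8.78 ± 0.23), with an adjusted p of 0.0945. Msmo1, an oxidase of the methyl groups, had the same extremes, 10.97 ± 0.12 and 9.61 ± 0.22, but its d6 male arrays read 8.75 and 10.53. Nsdhl, which works with it, was highest in E12.5 (9.85 ± 0.03) and lowest in d6 male (9.03 ± 0.21). Ebp, a sterol isomerase, was highest in d3 (10.33 ± 0.10) and lowest in E9.5 (9.46 ± 0.41). Cyp51, the lanosterol demethylase, and Sc5d, a desaturase, had group means that spanned only 0.34 and 0.59.

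The regulators set the level of both pathways. Srebf1, which encodes the SREBP that chiefly drives fatty acid genes, read 10.20 and 10.06 in d3, 10.21 and 10.33 in d6 female, 10.19 and 10.42 in d3ag6, 9.80 and 9.82 in E12.5, 9.31 and 9.26 in E9.5, and 9.88 and 9.88 in d6 male. Both E9.5 arrays were below all others, and E12.5 and d6 male formed a middle level. Srebf2, whose product chiefly drives sterol genes, read 10.39 and 10.39 in d3, 10.71 and 10.86 in d6 female, 10.62 and 10.64 in d3ag6, 10.42 and 10.39 in E12.5, 10.25 and 10.52 in E9.5, and 10.47 and 10.83 in d6 male. Its group means spanned 0.40 and it was not called (adjusted p = 0.252). Insig1, which retains SREBPs in the endoplasmic reticulum and is itself a target of them, read 9.58 and 9.21 in d3, 10.21 and 9.77 in d6 female, 10.53 and 9.81 in d3ag6, 10.35 and 9.92 in E12.5, 9.46 and 7.95 in E9.5, and 9.28 and 8.48 in d6 male. E9.5 and d6 male had the lowest means, but the E9.5 arrays differed by 1.51 and the gene was not called (adjusted p = 0.0976). Stard4, a soluble cholesterol carrier, read 8.96 and 8.32 in d3, 8.73 and 9.23 in d6 female, 9.58 and 9.95 in d3ag6, 9.20 and 9.29 in E12.5, 8.09 and 8.13 in E9.5, and 8.29 and 8.66 in d6 male. On this probe set both d3ag6 arrays were above all others and both E9.5 arrays below all others. The second Stard4 probe set, at a mean level of 7.52, was instead highest in E12.5, at 8.56, with d3ag6 at 8.10. Its lowest group means were those of d3 and E9.5, both 6.93.

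Among the fatty acid enzymes, Fasn, the synthase itself, read 12.00 and 12.01 in d3, 11.89 and 12.04 in d6 female, 12.00 and 12.11 in d3ag6, 11.76 and 11.88 in E12.5, 11.78 and 11.89 in E9.5, and 11.63 and 11.85 in d6 male. Its group means spanned 0.31, the smallest range in the set (adjusted p = 0.421). Acly, which supplies cytosolic acetyl-CoA from citrate, read 10.90 and 10.82 in d3, 11.49 and 11.29 in d6 female, 11.49 and 11.49 in d3ag6, 11.02 and 10.98 in E12.5, 10.75 and 10.23 in E9.5, and 10.95 and 10.70 in d6 male. The d6 female and d3ag6 arrays were above all others. Acaca, which makes malonyl-CoA, had means from 9.80 ± 0.16 (SD) in d6 male to 10.44 ± 0.09 in E12.5 and was not called (adjusted p = 0.0621).

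Scd1 and Scd2 both place a double bond in saturated fatty acids. Scd1 read 8.51 and 8.17 in d3, 9.21 and 9.34 in d6 female, 9.09 and 9.30 in d3ag6, 9.18 and 9.15 in E12.5, 8.07 and 7.76 in E9.5, and 8.71 and 8.71 in d6 male. On this probe set the d6 female, d3ag6 and E12.5 arrays were above all others, d6 male lay in the middle, d3 came next, and both E9.5 arrays were below all others. The second Scd1 probe set, at a mean level of 8.69 against 8.77, also had its lowest group mean in E9.5, at 8.23. It placed E12.5 next, at 8.39, below d3 at 8.59, d6 male at 8.83, d3ag6 at 8.94 and d6 female at 9.14. Scd2 read 11.95 and 11.84 in d3, 11.29 and 11.50 in d6 female, 11.76 and 12.11 in d3ag6, 11.79 and 11.97 in E12.5, 11.84 and 11.58 in E9.5, and 11.59 and 12.03 in d6 male, with the d6 female arrays below the other 10 (adjusted p = 0.274). Elovl6, which lengthens palmitate, read 11.15 and 10.93 in d3, 10.92 and 11.13 in d6 female, 10.82 and 10.98 in d3ag6, 10.20 and 10.34 in E12.5, 10.73 and 10.81 in E9.5, and 11.07 and 11.09 in d6 male. Both E12.5 arrays were below the other 10. Fads1 and Fads2, which desaturate polyunsaturated fatty acids, were not called (adjusted p = 0.333 and 0.642).

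The first comparison asks what 3 further days of culture did to female PGCLCs. Scd1 rose between d3 and d6 female by 0.94 ± 0.18 (adjusted p = 0.0226) on the log2 scale, 1.92-fold, where the error is the standard error (SE) and values after ± are SEs of differences from here on. It was the only one of 29 genes called, or 3.45%, against a background of 4.06% of all genes (1.72% higher and 2.34% lower). The median difference of the 29 was 0.135, with 17 above 0, and that of all genes was -0.011. The second Scd1 probe set gave 0.55. The call held in 7 of 12 fits that left out 1 array, with adjusted p from 0.0207 to 0.124. It was lost without d3 replicate 2, without either d6 female array and without either E12.5 array. It was also lost without the filter (adjusted p = 0.0509) and with the mean of both probe sets (adjusted p = 0.117).

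Aggregation with gonadal cells was compared with its starting cells and with culture alone. The d3ag6 cells spent 6 days in the aggregate after day 3, so d3ag6 and d6 female differ in total time too. Against d3, 4 genes rose and none fell. Dhcr7 rose by 2.0 ± 0.49 (adjusted p = 0.0332), 3.99-fold, and Stard4 by 1.13 ± 0.26 (adjusted p = 0.0274), 2.18-fold. Hsd17b7 rose by 0.95 ± 0.15 (adjusted p = 0.00581) and Scd1 by 0.85 ± 0.18 (adjusted p = 0.0165). The background was 10.6% of all genes (5.81% higher and 4.84% lower), and the 4 genes were 13.8% of the 29. Of the 11 squalene and sterol enzymes 9 were above 0, with a median difference of 0.54, while the 6 mevalonate enzymes had a median of 0.023 with 3 above 0. Over the 29 genes the median was 0.176, with 21 above 0, against -0.001 for all genes. Fdft1 differed by 0.72 ± 0.20 (adjusted p = 0.0502), Lss by 0.78 ± 0.25 (adjusted p = 0.0897) and Acly by 0.63 ± 0.19 (adjusted p = 0.0767), none of which passed the test.

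The call of Hsd17b7 against d3 held with each of 12 arrays left out, with adjusted p up to 0.0441. Those of Scd1, Stard4 and Dhcr7 were lost without d3 replicate 2 or without either d3ag6 array, with adjusted p up to 0.113, 0.162 and 0.161; Dhcr7 also lost its call without either d6 female array. The second Scd1 probe set, nearly as bright as the first, gave 0.35. The second Stard4 probe set gave 1.17 and the third, which is dimmer, -0.20. With the mean of all probe sets the calls of Hsd17b7, Scd1 and Stard4 were lost (adjusted p = 0.513, 0.132 and 0.0701), and without the filter those of Dhcr7 and Stard4 (adjusted p = 0.0649 and 0.0554).

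Against d6 female, Hsd17b7 was higher in d3ag6 by 0.82 ± 0.15 (adjusted p = 0.0187) and no other gene was called. That is 3.45% of the 29, against 6.39% of all genes (4.03% higher and 2.36% lower). With the values as deposited, 4.91% of all genes were called higher of 6.66% called. In this comparison 10 of 11 squalene and sterol enzymes were above 0, with a median of 0.42, and 2 of 6 mevalonate enzymes were, with a median of -0.28. The Hsd17b7 call was lost without d6 female replicate 1 or either d3ag6 array (adjusted p up to 0.153). Its other probe sets gave 0.18, 0.028 and -0.055, and with the mean of all of them the call was lost (adjusted p = 0.565).

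Aggregated PGCLCs were also set against gonadal PGCs of the embryo. Mvk was higher in d3ag6 than in E12.5 by 0.75 ± 0.19 (adjusted p = 0.043) and Elovl6 by 0.63 ± 0.16 (adjusted p = 0.0392). These 2 genes, 6.9% of the 29, stand against 9.03% of all genes (5.95% higher and 3.07% lower). The median over the 29 was 0.231, with 23 above 0, and that over all genes 0.003. Both calls were lost without any 1 of the 4 arrays compared and without some arrays of other groups (kept in 4 of 12 and 6 of 12 fits), with adjusted p up to 0.246 for Mvk and 0.239 for Elovl6. Both were also lost without the filter (adjusted p = 0.0826 and 0.0759) and with the mean of all probe sets (adjusted p = 0.37 and 0.965), and that of Mvk with the replicate number as a block (adjusted p = 0.052) and over the 8 arrays of code EA1013 alone (adjusted p = 0.0507). Their second probe sets gave -0.058 and -0.060.

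Markers of other cells were called higher in d3ag6 beside these genes, and their part in the differences was not tested. In all 3 comparisons, with d3, d6 female and E12.5, these were the macrophage genes Lyz2, Ctss and Tyrobp and the gonadal somatic gene Amhr2. Lyz2 passed the filter on low values through d3ag6 alone. Ctss passed it mainly so, since outside d3ag6 it was above 4.81 only on E9.5 replicate 1, at 6.75. Amhr2, a receptor of anti-Mullerian hormone, was higher by 1.59 ± 0.31 (adjusted p = 0.0129) against d3, 3.12 ± 0.31 (adjusted p = 0.00122) against d6 female and 1.79 ± 0.31 (adjusted p = 0.00917) against E12.5. The mesenchyme gene Col3a1 was higher by 4.02 ± 0.46 (adjusted p = 0.0011) against d3 and 3.80 ± 0.46 (adjusted p = 0.00159) against E12.5. Fst, which encodes follistatin, was called higher against d6 female, Csf1r against d3 and Cd68 against E12.5. Of the 12 arrays, Fst was above 4.81 only on d3ag6 replicate 1, at 5.10, and E9.5 replicate 1, at 5.04. Cbx2, listed with Amhr2 and Fst as gonadal somatic, was called lower in d3ag6 than in d3, with a difference of -0.55 ± 0.14 (adjusted p = 0.0338).

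The mevalonate enzymes Mvk and Mvd were lower in gonadal PGCs than in day 6 PGCLCs. Mvk was lower in E12.5 than in d6 female by a difference of -1.06 ± 0.19 (adjusted p = 0.00518), 2.09-fold, and Mvd by -1.13 ± 0.22 (adjusted p = 0.00812), 2.19-fold. Elovl6 differed by -0.76 ± 0.16 (adjusted p = 0.0102), and Hsd17b7 was higher in E12.5 by 0.74 ± 0.15 (adjusted p = 0.0108). These 4 genes, 13.8% of the 29, stand against 19.4% of all genes (9.33% higher and 10.1% lower). The 6 mevalonate enzymes had a median difference of -0.65 with 1 above 0, and the 11 squalene and sterol enzymes one of 0.014 with 6 above 0. That the roles differ in this comparison was not tested.

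The second Mvd probe set gave -1.11 and the second probe sets of Mvk and Elovl6 gave -0.43 and -0.36. The call of Mvk held with each array left out (adjusted p up to 0.0452) and under the 6 other settings tried. Mvd and Elovl6 lost theirs without d6 female replicate 2 or E12.5 replicate 1 (adjusted p up to 0.0611 and 0.0836). Hsd17b7 lost its own without d6 female replicate 1 or E12.5 replicate 1 (adjusted p up to 0.089). With the mean of all probe sets Elovl6 and Hsd17b7 lost their calls (adjusted p = 0.167 and 0.294).

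In the same comparison 4 of 5 endothelial markers, Tie1, Kdr, Tek and Cdh5, were called lower in E12.5, as were Col3a1 of the mesenchyme list and Cd68 of the macrophage list. Amhr2, Fst and the erythroid gene Hbb-y were called higher there, but Fst lay below 4.81 on all arrays of both groups. Most other genes of the lists with Cd68 and Col3a1 went the other way: 5 of 6 tested macrophage genes and 3 of 5 tested mesenchyme genes were above 0. Of these, Lyz2, Ctss, Adgre1 and Lum also lay below 4.81 on all arrays of both groups. The part of these markers in the differences above was not tested.

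**Figure D4:**
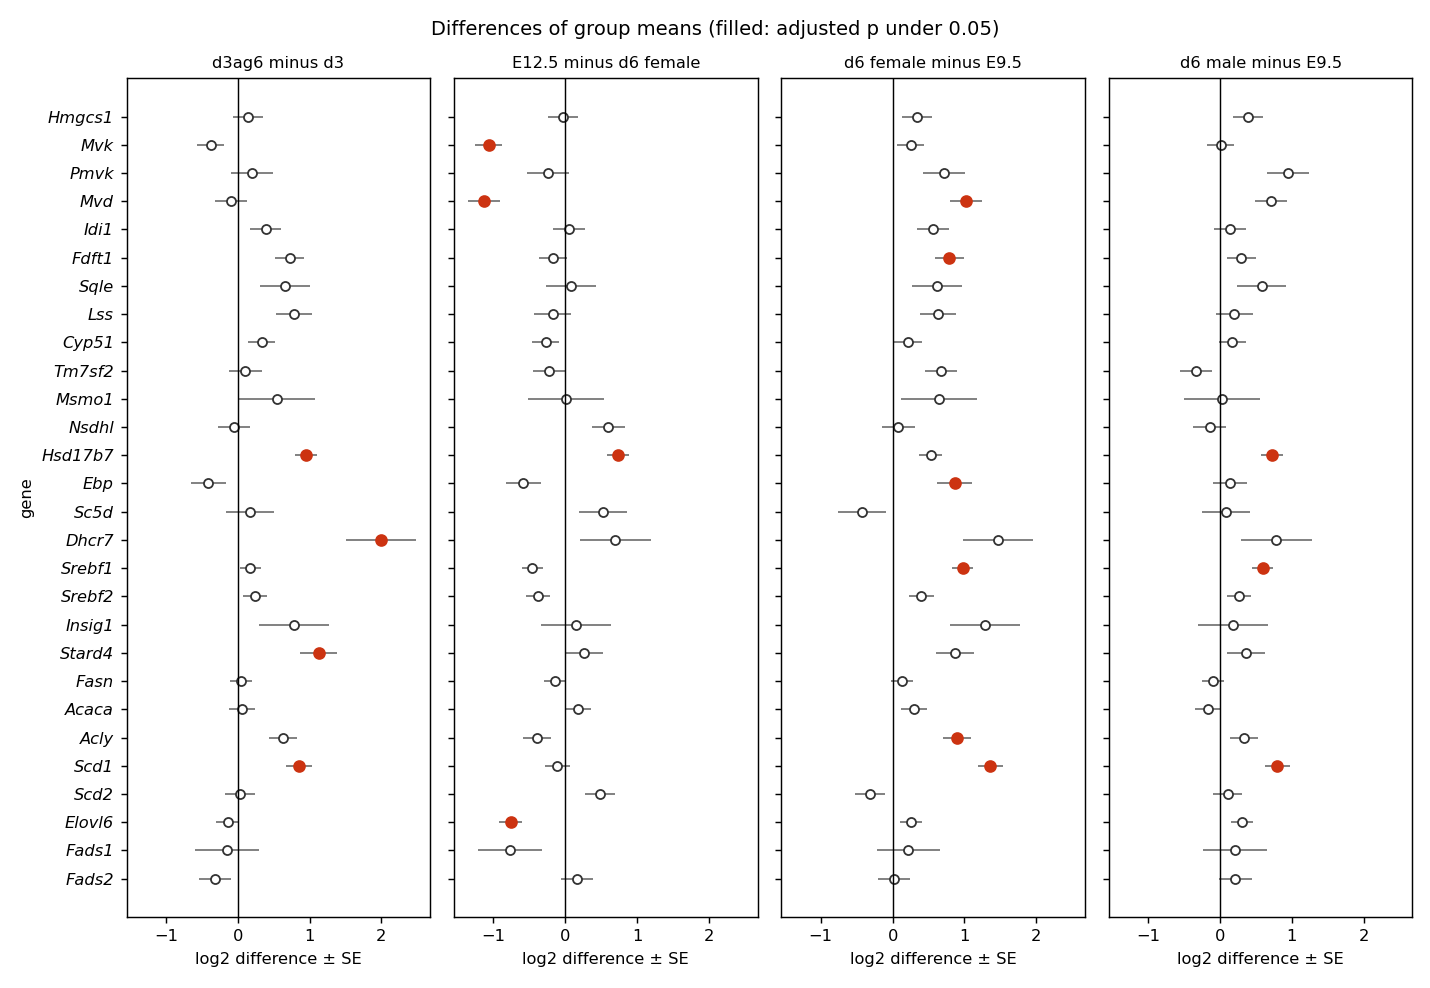
Points give the difference of group means in log2 (x axis, with bars of ± 1 SE) for 28 genes (rows) in 4 comparisons, filled where the adjusted p was under 0.05; Fdps, whose values range most widely, is left out. Filled points lie to the right in d3ag6 minus d3, d6 female minus E9.5 and d6 male minus E9.5, and to the left for Mvk, Mvd and Elovl6 in E12.5 minus d6 female.

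Between the embryonic stages, 5 genes of sterol reduction, desaturation, regulation and transport were higher at E12.5 than at E9.5, and 3 genes were lower. Dhcr7 was higher by 2.17 ± 0.49 (adjusted p = 0.013), 4.5-fold. Hsd17b7 was higher by 1.27 ± 0.15 (adjusted p = 0.000808), Scd1 by 1.25 ± 0.18 (adjusted p = 0.0016), Stard4 by 1.14 ± 0.26 (adjusted p = 0.0144) and Srebf1 by 0.52 ± 0.15 (adjusted p = 0.0325). Mvk differed by -0.81 ± 0.19 (adjusted p = 0.0151), Fdps by -2.93 ± 0.89 (adjusted p = 0.0439) and Elovl6 by -0.50 ± 0.16 (adjusted p = 0.0467), all lower at E12.5. The 8 called genes were 27.6% of the 29, against 23.6% of all genes (12.9% higher and 10.7% lower). With the values as deposited, 10.1% of all genes were called higher of 22.6% called. All 4 regulators and carriers and 10 of 11 squalene and sterol enzymes were above 0, with medians of 0.83 and 0.62, against 0.080 for all genes. With the values as deposited the 29 genes had a median of 0.315 with 20 above 0, and all genes one of 0.

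All E12.5 arrays carry the code EA1013 and the E9.5 arrays the codes EA0831 and EA0842, so array code and stage cannot be told apart, and the sex also differs in what is known of it. The calls of Hsd17b7 and Scd1 held with each array left out (adjusted p up to 0.0115 and 0.0173). The second Scd1 probe set gave 0.16, and the second Elovl6 probe set, at a mean level of 9.30, gave 0.27, the opposite direction to the first. Dhcr7 lost its call without E12.5 replicate 1 or E9.5 replicate 2 (adjusted p up to 0.0959). Stard4 and Mvk lost theirs without either E12.5 array or E9.5 replicate 1 (up to 0.0833 and 0.0941), and Fdps without either E12.5 array or E9.5 replicate 2 (up to 0.212). Srebf1 and Elovl6 lost theirs without any 1 of the 4 arrays (up to 0.146 and 0.228). Without arrays of other groups Fdps and Elovl6 also lost calls, which held in 5 of 12 and 2 of 12 fits. On the deposited scale Srebf1 was no longer called (adjusted p = 0.0892). Without the filter Srebf1, Elovl6 and Fdps lost theirs (adjusted p = 0.059, 0.0806 and 0.0775). With the mean of all probe sets Hsd17b7, Mvk and Elovl6 did (adjusted p = 0.0999, 0.0635 and 0.787), and with the replicate number as a block Fdps did (adjusted p = 0.0515). All 5 tested mesenchyme markers and the erythroid gene Hbb-y were called lower in E12.5 as well, and Amhr2 and Tyrobp higher. Of the 7 tested gonadal somatic genes, with Amhr2, 3 were above 0, and of the 6 tested macrophage genes, with Tyrobp, 4 were. Alas2 was also called lower, but it passed the filter on low values through E9.5 alone, and Lum of the mesenchyme list mainly so.

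Day 6 female PGCLCs exceeded E9.5 PGCs in genes of every role. Scd1 was higher by 1.36 ± 0.18 (adjusted p = 0.00181), 2.57-fold, and Srebf1 by 0.98 ± 0.15 (adjusted p = 0.00342), 1.97-fold. Mvd was higher by 1.02 ± 0.22 (adjusted p = 0.0177), Acly by 0.90 ± 0.19 (adjusted p = 0.0173), Ebp by 0.86 ± 0.24 (adjusted p = 0.0447) and Fdft1 by 0.79 ± 0.20 (adjusted p = 0.0308). These 6 genes, 20.7% of the 29, stand against 13.9% of all genes (8.33% higher and 5.6% lower). With the values as deposited, 5.68% of all genes were called higher of 12.8% called. The median over the 29 was 0.564, with 26 above 0, against 0.065 for all genes; with the values as deposited it was 0.475, with 24 above 0, against -0.035.

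Here too array code and group cannot be told apart. The calls of Scd1 and Srebf1 held with each array left out (adjusted p up to 0.0183 and 0.0315) and under the 5 other settings tried, and the second Scd1 probe set gave 0.91. Acly and Fdft1 lost theirs without either d6 female array or E9.5 replicate 2 (up to 0.11 and 0.17). Mvd lost its call without either d6 female array or E9.5 replicate 1 (up to 0.111), and Ebp without d6 female replicate 1 or E9.5 replicate 2 (up to 0.256). Fdft1 and Ebp also lost calls without arrays of other groups, and held them in 7 of 12 and 4 of 12 fits. Averaged over its 6 probe sets, Acly differed by -0.051 (adjusted p = 0.912). The probe set next in brightness gave 0.72. On the deposited scale the call of Ebp was lost (adjusted p = 0.0692), as it was without the filter (adjusted p = 0.0798), and Fdft1 lost its own without the filter (adjusted p = 0.0587) and with the mean of all probe sets (adjusted p = 0.165). Of the markers, 4 of 5 tested mesenchyme genes, the erythroid gene Hbb-y and Fst were called lower in d6 female, and Tek and Cd68 higher. Of the 6 tested macrophage genes, with Cd68, 4 were above 0. Alas2 was also called lower, but it passed the filter on low values through E9.5 alone, and Lum of the mesenchyme list mainly so.

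Day 6 male PGCLCs give the comparison with E9.5 in which each array code holds 1 array of both groups. Scd1 was higher in d6 male by 0.80 ± 0.18 (adjusted p = 0.022), Hsd17b7 by 0.72 ± 0.15 (adjusted p = 0.0182) and Srebf1 by 0.59 ± 0.15 (adjusted p = 0.034). The 3 genes were 10.3% of the 29, against 10.6% of all genes (6.04% higher and 4.55% lower). Within the code EA0831 the differences were 0.64 for Scd1, 0.68 for Hsd17b7 and 0.57 for Srebf1. Within EA0842 they were 0.95, 0.77 and 0.62. Dhcr7, which was not called (adjusted p = 0.408), gave 0.77 and 0.80. Of the 29 genes 21 had the same sign in both codes (72.4%), as did 71.5% of all genes.

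With the array code as a block 5 genes were called, the same 3 and also Pmvk and Mvd. The share of all genes called in that fit is not given here, so the 5 are not read as a gain over the 3. The call of Scd1 was lost without E9.5 replicate 2 or either d6 male array, and those of Hsd17b7 and Srebf1 without any 1 of the 4 arrays (adjusted p up to 0.103, 0.0811 and 0.108). Srebf1 held its call in 4 of 12 fits and lost it without the filter (adjusted p = 0.0649). With the mean of all probe sets Scd1 and Hsd17b7 lost theirs (adjusted p = 0.0802 and 0.496). The mesenchyme genes Col3a1, Pdgfra and Lum, the erythroid gene Hbb-y and the gonadal somatic genes Lhx9, Wt1 and Fst were called lower in d6 male, and the endothelial genes Tek, Kdr and Tie1 higher. Alas2 was also called lower, but it passed the filter on low values through E9.5 alone, and Lum mainly so. The comparisons with E9.5 share its 2 arrays, so their like directions are not separate observations.

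No gene of the 29 was called between d6 female and d6 male by limma, where 1.47% of all genes were (0.968% higher and 0.499% lower). At an unadjusted p under 0.05 there were 8 of the 29, beside 2451 of all 13436 genes. The nearest was Tm7sf2, higher in d6 female by 1.01 ± 0.23 (adjusted p = 0.0695). With the values as deposited, 0.611% of all genes were called higher of 1.47% called. Array code and sex cannot be told apart in this comparison.

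Related genes outside the 29 were described from lists of the wider pathway. Among 7 tested genes of sterol synthesis and uptake, Scap, the escort of SREBPs, was higher in E12.5 than in d6 female by 0.77 ± 0.21 (adjusted p = 0.0315) and than in E9.5 by 0.78 ± 0.21 (adjusted p = 0.0257). Ggps1, which makes geranylgeranyl diphosphate, differed by -0.49 ± 0.15 (adjusted p = 0.0432) between E12.5 and E9.5. No other gene of that list passed the test in any of the 9 comparisons. The shares of all genes called were 9.33% higher in E12.5 minus d6 female, and 12.9% higher and 10.7% lower in E12.5 minus E9.5. Of 8 tested genes of sterol efflux and trafficking, 1 was called lower in d6 female than in d3, against 2.34% of all genes. It was Nr1h3, the sterol sensor LXR alpha, which read 5.0 and 4.82 in d3 and lay below 4.81 on the other 10 arrays. It passed the filter on low values through d3 alone, so no difference is given for it. Against E12.5, Npc2 and Lipa, both lysosomal, were higher in d3ag6 by 0.99 and 1.19, where 5.95% of all genes were called higher. Abca1, the cholesterol exporter, was higher in E12.5 than in E9.5 by 2.23 ± 0.41 (adjusted p = 0.00505). Against d6 female, 3 of the 8 were called higher in E12.5 and 1 lower, where 9.33% of all genes were higher and 10.1% lower. Abca1 was higher by 1.51 ± 0.41 (adjusted p = 0.0312) and Mylip by 1.22 ± 0.34 (adjusted p = 0.0349). Npc2 differed by -0.80 ± 0.19 (adjusted p = 0.0203). The remaining gene was Nr1h3, which lay below 4.81 on the arrays of both groups.

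Among 15 further genes of fatty acid synthesis, 3 were higher in d3ag6 than in d6 female and none lower, or 20% of the 15, against 4.03% of all genes called higher. They were Acss2, which activates acetate, by 1.46 ± 0.25 (adjusted p = 0.0137), Mlxipl, the glucose-responsive factor ChREBP, by 1.13 ± 0.22 (adjusted p = 0.0226), and Lpin1, a phosphatidate phosphatase, by 1.0 ± 0.15 (adjusted p = 0.00753). Mlxipl read 6.40 and 6.38 in d3, 7.76 and 7.98 in d6 female, 8.96 and 9.04 in d3ag6, 8.02 and 8.60 in E12.5, 6.28 and 6.10 in E9.5, and 7.38 and 7.81 in d6 male, so d3 and E9.5 were lowest and d3ag6 highest. Lpin1 read 7.39 and 7.19 in d3, 7.45 and 7.43 in d6 female, 8.39 and 8.49 in d3ag6, 8.27 and 8.38 in E12.5, 6.12 and 6.23 in E9.5, and 6.91 and 7.12 in d6 male, again with E9.5 lowest and d3ag6 and E12.5 at the top. Against d3, d3ag6 had 4 of the 15 higher, Mlxipl, Lpin1, Acss2 and Acacb, and 1 lower, Elovl7, against 5.81% of all genes higher and 4.84% lower. Elovl7 read 6.58 and 6.10 in d3 and was above 4.81 elsewhere only on E9.5 replicate 1, at 4.84, so it passed the filter mainly through d3 and no difference is given for it. E12.5 exceeded E9.5 in 5 of the 15 and was below it in 3, against 12.9% and 10.7% of all genes, with Lpin1 at 2.15 ± 0.15 (adjusted p = 6.3e-05) and Mlxipl at 2.12 ± 0.22 (adjusted p = 0.00039). Of the 3 lower genes, Elovl2 passed the filter mainly through E9.5. Elsewhere it was above 4.81 only on E12.5 replicate 1, at 4.91. E12.5 exceeded d6 female in 3 of the 15, Lpin1, Me1 and Acss2, and was below it in 1, Fabp5. The shares of all genes were 9.33% and 10.1%.

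Of 11 tested genes of fatty acid oxidation, E12.5 exceeded E9.5 in 5 and was below it in 1, against the same 12.9% and 10.7% of all genes, in a comparison where array code and stage cannot be told apart. Cpt1a, which admits fatty acids to mitochondria, differed by 2.68 ± 0.44 (adjusted p = 0.00318) there, and Etfdh and Acadl by 1.43 and 1.07. Cpt1a read 7.85 and 7.83 in d3, 8.75 and 8.12 in d6 female, 7.99 and 7.06 in d3ag6, 7.73 and 7.39 in E12.5, 5.51 and 4.26 in E9.5, and 9.32 and 8.82 in d6 male. Both E9.5 arrays were below the other 10, and d6 male exceeded E9.5 by 4.19 ± 0.44 (adjusted p = 0.000693) with the array codes in common. Between E12.5 and d6 female, which share the code EA1013, 4 of the 11 were called higher in E12.5, against 9.33% of all genes. Among them were Etfdh, Hadhb and Acadl. Only Ech1 was called lower there, where 10.1% of all genes were. Between d3ag6 and d6 female, 1 of the 11 was called, Hadhb, higher in d3ag6 by 0.57 (4.03% of all genes), and from d3 to d6 female none was. At an unadjusted p under 0.05 there were 2 of the 11 from d3 to d6 female, beside 2175 of all 13436 genes. Only Star of the steroid hormone list, 1 of 5 genes, passed the filter on low values, and it was not called in any comparison.

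Over the 9 comparisons the 29 genes received 29 calls, in 12 different genes, of which 6 held with each array left out in turn and 4 under every setting tried. These 4 were Scd1 in d6 female and in E12.5 against E9.5, Srebf1 in d6 female against E9.5, and Mvk in E12.5 against d6 female. In those against E9.5 no setting could tell array code and group apart. The second Scd1 probe set gave 0.91 in d6 female and 0.16 in E12.5, against 1.36 and 1.25 on the one used. That of Mvk gave -0.43, against -1.06. Tm7sf2 was called over the groups but in no comparison, and Ebp in a comparison but not over the groups.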

How the data were processed

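Labelled cRNA from sorted cells was hybridised to 12 single-sample Affymetrix mouse arrays, per the labels. The deposited table gave 1 value per probe set and array, taken as log2 from its range. How probes were summarised, how arrays were scaled before deposit and which log base was used are not given in the sources used here. Amplifying 5 ng of RNA can widen the spread of dim genes. Per-sample columns without a sample numbered 0.

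Medians of the arrays lay between 4.73 and 4.87, and quantile normalization with limma 3.58.1 in R 4.3.3 brought them together. By the platform annotation 34958 probe sets named 1 gene, 932 several and 9211 none, and 34754 of the first were matched to the reference gene table. Each of 18194 genes was read from its probe set with the highest mean, and 13436 genes with at least 2 arrays above 4.81, the median of all values, were tested. limma's lmFit and eBayes fitted 1 mean per group over 12 arrays (6 residual degrees of freedom). Tests were two-sided, Benjamini-Hochberg adjustment covered the 13436 genes of each comparison, and calls were made at adjusted values below 0.05. The fit was tested on simulated data.

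The 29 genes, the lists of related genes and markers, and the tests were chosen with earlier results of these data known. Values on each array are given for genes called over the 6 groups and for Hmgcs1, Idi1, Sqle, Insig1, Srebf1, Srebf2, Fasn, Scd1 and Scd2. Those of the 29 genes called in a comparison are named, and some of the called genes of each other list, at most 4. Array values of Mlxipl, Lpin1, Cpt1a, Nr1h3, Elovl7 and single markers are given outside this rule, after their values were seen. Only 2 arrays per group limit the precision, and the p-values measure the spread between these arrays. Samples of a group came as biological replicates per the labels. Groups with like replicate numbers were not paired in the fit: over 15 pairs of groups the correlation of deviations ran from -0.252 to 0.547, and 8 were above 0.1. The highest was that of E9.5 and d6 male, in which the replicate number goes with the array code. Array codes (EA1013, EA0831, EA0842) were read from the sample descriptions, and their meaning is not given in the sources used here. The other settings were the values as deposited, a filter at the 75th percentile or none, the mean of all probe sets, the replicate number or the array code as a block, each array left out, and, chosen after seeing the data, the 8 arrays of code EA1013 alone. Promoter windows were searched and figures drawn in Python 3.11.15 with pandas 2.3.3, numpy 2.4.6 and matplotlib 3.10.9.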

Additional observations from a re-analysis of the deposited data

How the results depend on the processing

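The counts of called genes moved with several settings. Without the filter on low values they became 0 in d6 female minus d3, 2 in d3ag6 minus d3, 0 in d3ag6 minus E12.5 and 5 in E12.5 minus E9.5. With the mean of all probe sets they became 0 in d6 female minus d3, 0 in d3ag6 minus d6 female, 1 in d3ag6 minus d3, 0 in d3ag6 minus E12.5, 2 in E12.5 minus d6 female, 5 in E12.5 minus E9.5, 1 in d6 male minus E9.5 and 7 over the 6 groups. Up to E12.5 minus E9.5, the shares of all genes called there were 2.80%, 4.75%, 8.31%, 6.59%, 15.9% and 20.2%. In the main fit these shares were 4.06%, 6.39%, 10.6%, 9.03%, 19.4% and 23.6%. With the filter at the 75th percentile, which Hsd17b7 did not pass, d3ag6 minus d6 female had 0, where 9.87% of all genes were called. The array code as a block gave 5 in d6 male minus E9.5. The 8 arrays of code EA1013 alone gave 1 in d3ag6 minus E12.5 and 6 in d3ag6 minus d3, the same 4 and also Fdft1 and Acly. Of all genes 11.6% and 13.5% were called there, against 9.03% and 10.6% in the main fit. The values as deposited kept each count within 1.5 times, but Srebf1 in E12.5 minus E9.5 and Ebp in d6 female minus E9.5 lost their calls. One call reversed: Acly in d6 female minus E9.5 stood at -0.0514 with the mean of all probe sets. Of 29 calls over the comparisons 8 held under every setting other than leaving out an array.

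With each array left out, counts ran from 0 to 1 in d6 female minus d3, from 0 to 1 in d3ag6 minus d6 female, from 1 to 6 in d3ag6 minus d3, from 0 to 2 in d3ag6 minus E12.5, from 1 to 4 in E12.5 minus d6 female, from 2 to 9 in E12.5 minus E9.5, from 2 to 9 in d6 female minus E9.5, from 0 to 3 in d6 male minus E9.5, from 0 to 1 in d6 female minus d6 male and from 7 to 15 over the 6 groups. A group left with 1 array was assumed to vary like the others. These fits had 1 array fewer than the 12 of the others. The share of all genes called also moved between these fits, so the counts do not speak of these genes alone.

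In E9.5 and d6 male the replicate number goes with the array code, EA0831 for replicate 1 and EA0842 for replicate 2; among the other groups it marks no known pairing. With the replicate block 1 gene was called in d6 female minus d3, 1 in d3ag6 minus d6 female, 6 in d3ag6 minus d3, 1 in d3ag6 minus E12.5, 4 in E12.5 minus d6 female, 10 in E12.5 minus E9.5, 8 in d6 female minus E9.5, 3 in d6 male minus E9.5, 0 in d6 female minus d6 male and 14 over the 6 groups. In the same order, up to E12.5 minus E9.5, the shares of all genes called were 4.07%, 7.07%, 11.5%, 9.63%, 21.2% and 25.4%.

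With 2 arrays per group, a gene that missed the threshold is not shown to be alike between groups. Probe sets of low signal, such as those of Fdps, give folds that are less certain than those of bright genes.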

Other observations

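Some probe sets of these genes stood higher in the groups of 1 set of array codes. They were picked after their values were seen, and no test was run on them. A second probe set of Scd2 had group means of 4.04 in d3, 4.07 in d6 female, 4.09 in d3ag6 and 4.38 in E12.5, all of code EA1013, and of 7.50 in E9.5 and 7.45 in d6 male, of the codes EA0831 and EA0842. The probe set used for Scd2 had means from 11.40 to 11.93 over the same groups. Another dim probe set of Acly had means of 1.93, 3.29, 2.05 and 2.11 in the EA1013 groups, in the same order, and of 5.38 and 5.51 in E9.5 and d6 male. The probe set used for Fdps had means of 4.37, 6.56, 4.02 and 4.66 in the first 4 groups and of 7.59 and 7.55 in the others. What the array codes stand for was not given in the sources used here.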
